A study of Homo sapiens with 8 samples.

Results

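The metallothionein genes MT1A, MT1E, MT1F, MT1G, MT1H, MT1M, MT1X and MT2A were examined in 2 clear cell renal cell carcinoma (ccRCC) lines, A498 and 786-O. They are 8 of the 18693 gene symbols that have a RefSeq mRNA entry in the deposited tables, and were chosen by name as the metallothioneins of the MT1 and MT2 classes. For a symbol, the FPKM (fragments mapped per kilobase of transcript, scaled to library depth) of its mRNA entries was summed in each library, and each of the 8 genes had a single entry.

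Metallothioneins are very small, cysteine-rich proteins that bind zinc and copper ions, and cadmium when it is present. Cells raise their transcription when free metal rises, through the zinc-sensing transcription factor MTF1, which binds short metal response elements in the promoters, and glucocorticoids and oxidative stress raise several of them as well. MT2A is usually the most abundant copy, the MT1 genes are near-copies of each other that arose by duplication, and the proximal tubule, from which ccRCC is thought to arise, is a place where they bind zinc and cadmium.

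The study knocked down SLINKY, a long intergenic non-coding RNA (lincRNA), with small interfering RNAs (siRNAs). For each line there were 2 libraries from cells given non-targeting control siRNA (NTC) and 1 library each from cells given SLINKY siRNA1 or siRNA2, all at 50 nM, which makes 8 libraries of single-end 36-bp reads. The labels give 16 h for the transfection, and the study's methods give a later time for the RNA. The labels call the siRNAs pools and the methods describe siRNA1 and siRNA2 as individual siRNAs against the first exon. A498 was grown in DMEM and 786-O in RPMI-1640, both with fetal bovine serum, so an effect of the line and one of the medium cannot be told apart. The sources do not say whether the 2 NTC libraries of a line came from separate cultures, so p-values measure the spread between these libraries, which may be technical.

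The reads behind the entries, computed from the width of the deposited intervals, summed to between 17486201 and 45359305 per library. SLINKY was at 14.6 and 16.1 FPKM in the A498 NTC libraries, against 1.64 with siRNA1 and 3.01 with siRNA2. In 786-O it was at 1.45 and 1.39 FPKM in NTC, against 0.0569 and 0.594. PAX8, a transcription factor of kidney epithelium, was at 40.5 ± 1.71 FPKM in A498 and 44.4 ± 2.66 in 786-O (SD, n = 4), while the leukocyte gene PTPRC was listed at 0 in all 8 libraries.

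The members lie in a cluster on chromosome 16 and have 3 exons each. In hg19, the build of the deposited tables, the entries run from MT2A (chr16:56642478-56643409) through MT1E (chr16:56659585-56661024), MT1M (chr16:56666534-56667898), MT1A (chr16:56672578-56673999), MT1F (chr16:56691855-56693215), MT1G (chr16:56700653-56701977) and MT1H (chr16:56703726-56705041) to MT1X (chr16:56716382-56718108), a span of 75.6 kb. MT1G is on the minus strand and the others are on the plus strand. Their coding sequences share 88.5% to 94.5% of their bases with each other, so that short reads can match more than 1 copy. The coding sequences below, spliced from the GRCh37 genome, are those of the 2 most abundant copies of A498 and of the 3 copies that differed most between the lines. They are shown because the comparison between copies rests on the few bases in which they differ, and capitals mark the bases unlike MT2A.
MT2A: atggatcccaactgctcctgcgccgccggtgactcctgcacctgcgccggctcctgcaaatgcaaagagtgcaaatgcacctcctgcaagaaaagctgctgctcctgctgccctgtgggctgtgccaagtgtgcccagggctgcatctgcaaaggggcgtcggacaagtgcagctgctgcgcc
MT1X: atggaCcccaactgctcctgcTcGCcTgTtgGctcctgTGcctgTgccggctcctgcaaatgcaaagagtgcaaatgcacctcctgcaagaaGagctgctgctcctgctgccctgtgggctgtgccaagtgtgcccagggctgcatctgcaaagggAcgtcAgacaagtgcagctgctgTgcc
MT1E: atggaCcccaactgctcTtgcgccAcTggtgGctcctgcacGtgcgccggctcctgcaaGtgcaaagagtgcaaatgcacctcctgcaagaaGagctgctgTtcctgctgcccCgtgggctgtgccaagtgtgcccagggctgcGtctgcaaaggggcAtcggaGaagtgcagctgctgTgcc
MT1F: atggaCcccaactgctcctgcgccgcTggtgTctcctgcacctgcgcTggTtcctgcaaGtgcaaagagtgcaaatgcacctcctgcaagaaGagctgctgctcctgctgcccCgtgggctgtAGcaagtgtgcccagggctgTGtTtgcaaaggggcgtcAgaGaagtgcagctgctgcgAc
MT1M: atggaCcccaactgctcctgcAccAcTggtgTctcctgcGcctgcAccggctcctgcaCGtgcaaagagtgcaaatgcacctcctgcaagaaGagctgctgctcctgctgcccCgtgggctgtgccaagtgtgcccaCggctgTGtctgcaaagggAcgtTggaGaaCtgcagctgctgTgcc
Each of these is 183 bases long. MT1X and MT1E each had 14 bases unlike MT2A, MT1F had 16 and MT1M had 19, and most of the differences stand alone or in short groups.

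Whether a 36-base read could be placed on 1 copy was examined in the GRCh37 genome and the GENCODE transcripts. Of all 36-base windows of the MT2A transcript, 72.7% had no exact match elsewhere in the genome or in a transcript of another gene. The same share was 83.4% for MT1E, 89.0% for MT1F, 87.0% for MT1A and 73.6% for MT1G. It was 72.1% for MT1X, 66.7% for MT1M and 65.2% for MT1H. When up to 2 mismatches to another metallothionein were allowed, the share fell to between 31.7% (MT1M) and 70.3% (MT1F). Every member therefore had windows of its own, but the assignment of the shared reads was made by the authors' software, and the values of single copies are uncertain by an amount that was not tested.

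**Figure D1:**
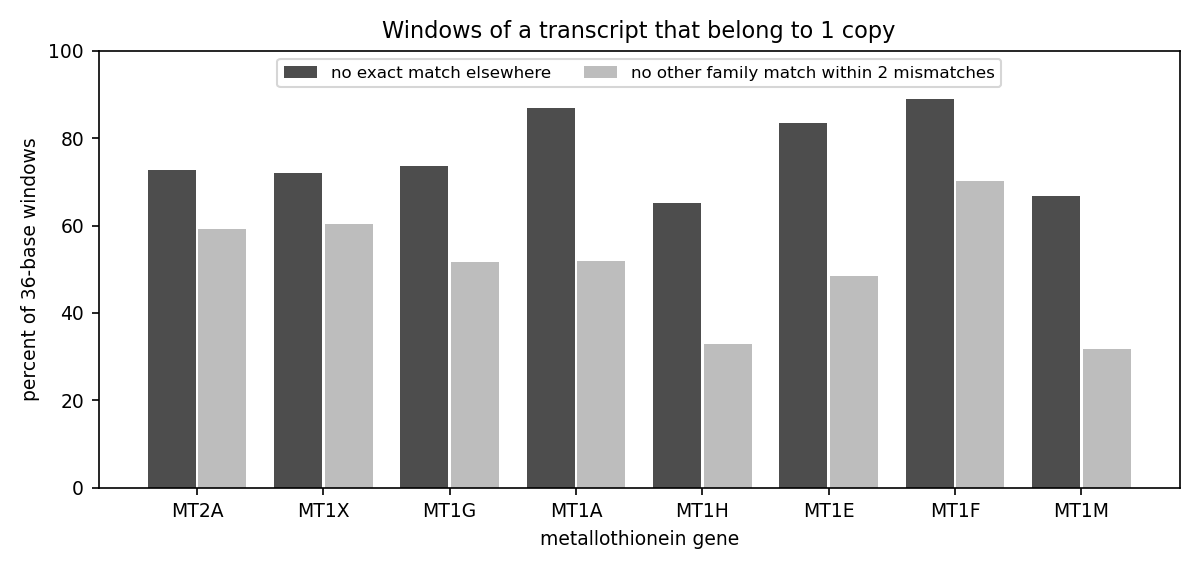
Share of the 36-base windows of each member's transcript that have no exact match elsewhere in the genome or in a transcript of another gene (dark bars), in percent. The light bars give the share that also has no match within 2 mismatches in another metallothionein transcript. MT1F has the highest share in both, at 89.0% and 70.3%, and MT1M has the lowest share under 2 mismatches, at 31.7%.

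Metal response elements were looked for in the promoters, from 250 bases before to 50 bases after the start of transcription. RefSeq promoters (GRCh38.p14) were at hand for 3 of the 8 members, and are shown because these copies are transcribed in both lines. Capitals mark each match to TGCACNC or TGCGCNC, the core of the element, on either strand.
MT2A, chr16:56608334-56608633, plus strand: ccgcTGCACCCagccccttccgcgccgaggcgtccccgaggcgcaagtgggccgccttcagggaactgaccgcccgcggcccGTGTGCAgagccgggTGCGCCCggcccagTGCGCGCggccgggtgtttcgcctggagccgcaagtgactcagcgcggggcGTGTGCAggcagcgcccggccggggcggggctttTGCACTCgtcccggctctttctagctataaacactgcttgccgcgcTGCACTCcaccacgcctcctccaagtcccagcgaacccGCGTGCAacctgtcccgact
MT1X, chr16:56682220-56682519, plus strand: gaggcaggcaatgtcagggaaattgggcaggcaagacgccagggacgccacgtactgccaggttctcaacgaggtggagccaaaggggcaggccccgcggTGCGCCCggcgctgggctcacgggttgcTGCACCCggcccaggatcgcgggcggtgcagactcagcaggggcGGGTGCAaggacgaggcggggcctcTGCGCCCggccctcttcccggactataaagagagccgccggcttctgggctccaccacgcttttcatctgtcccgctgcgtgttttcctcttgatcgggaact
MT1H, chr16:56669564-56669863, plus strand: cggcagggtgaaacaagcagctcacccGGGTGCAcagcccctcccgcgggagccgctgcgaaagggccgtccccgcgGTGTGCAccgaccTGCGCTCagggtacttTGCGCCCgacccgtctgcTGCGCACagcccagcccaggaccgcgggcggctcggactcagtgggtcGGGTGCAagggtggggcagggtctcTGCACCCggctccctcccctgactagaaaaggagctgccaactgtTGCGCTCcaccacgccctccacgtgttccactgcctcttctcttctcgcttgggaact
There were 8 matches in the MT2A promoter, 8 in that of MT1H and 4 in that of MT1X. At least 1 match was present in 29.6% of 35116 promoters of the same length, at least 4 in 0.601% and at least 8 in 0.0199%. The 3 promoters held the letters GGGCGG, the core of a GC box, 2 times (MT2A), 2 times (MT1X) and 1 time (MT1H), and 45.0% of all promoters held them at least once. A match is a description of the letters and says nothing of binding in these cells.

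All 8 metallothioneins were lower in A498 than in 786-O, with no overlap between the 4 libraries of one line and the 4 of the other. The share of all genes tested that also had no overlap is not given here, so the lack of overlap is a description only. The size of the difference split the family. MT2A, MT1X, MT1A, MT1H and MT1G were at 42.3% to 53.1% of their 786-O level in A498, whereas MT1F was at 7.32%, MT1E at 0.239% and MT1M at 0.231%. In a limma fit of log2(FPKM + 0.1) on cell line and treatment over 10503 genes with a mean of at least 1 FPKM, all 8 passed an adjusted p of 0.05 (Benjamini-Hochberg), but so did 83.8% of the genes tested, and 42.8% passed and were lower in A498. The median difference of the members was −1.17 on the log2 scale, against −0.02 over all genes tested. Only 1.28% of the genes tested passed and were at least 8-fold lower in A498, and 3 of the 8 members, MT1E, MT1F and MT1M, were at least that much lower. MT1M had a mean of 0.0706 FPKM in A498 and passed the filter on low values only through 786-O, so its place in these counts is not support for a difference.

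MT2A, the main copy in human cells, was at 2862 and 2818 FPKM in the A498 NTC libraries and at 2468 and 2386 with siRNA1 and siRNA2. In 786-O it was at 5293 and 5054 FPKM in NTC and at 5109 and 4973 with the siRNAs. It thus ranked 9th of all genes by mean FPKM in A498 and 3rd in 786-O, and its mean was 1.94-fold higher in 786-O (log2 difference of A498 from 786-O −0.96 ± 0.04 SE, adjusted p = 4.97e-08 in limma). Between 12985 and 70866 reads stood behind each of its values.

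MT1X, the most abundant MT1 copy in A498, followed MT2A closely. It was at 244 and 247 FPKM in the A498 NTC libraries, 219 with siRNA1 and 207 with siRNA2, and at 465, 434, 421 and 408 FPKM in the same order in 786-O. Its log2 difference was −0.92 ± 0.04 (SE, adjusted p = 1.85e-08 in limma). Within each library its FPKM was 8.20% to 8.85% of that of MT2A, so the ratio of the 2 genes varied only 1.08-fold over the 8 libraries.

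MT1G, the one member on the opposite strand, was at 62.7, 58.9, 55.8 and 49.5 FPKM in A498 (NTC 1, NTC 2, siRNA1, siRNA2). In 786-O it was at 141, 139, 141 and 115 FPKM, the siRNA2 library being the low one. Its log2 difference of −1.24 ± 0.04 (SE, adjusted p = 4.10e-09 in limma) was the largest of the 5 members with differences near 2-fold.

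MT1A was at 41.1, 43.8, 31.5 and 30.2 FPKM in A498 and at 79.4, 70.6, 75.5 and 84.6 in 786-O, in the same order of libraries. MT1H was at 37.1, 32.6, 30.5 and 28.4 FPKM in A498 and at 65.2, 73.3, 64.6 and 67.6 in 786-O. These 2 copies overlapped with each other within each line, and their log2 differences between the lines were −1.09 ± 0.11 for MT1A (SE, adjusted p = 1.12e-05 in limma) and −1.08 ± 0.06 for MT1H (SE, adjusted p = 3.32e-07 in limma). The FPKM of MT1A was 1.27% to 1.70% of that of MT2A in every library, and that of MT1H was 13.2% to 16.9% of that of MT1X. Over the 8 libraries the ratio of MT1A to MT2A varied 1.34-fold, that of MT1H to MT1X 1.27-fold and that of MT1A to MT1X 1.44-fold. These ratios stand beside the shared windows given above, whose part in them was not tested.

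MT1E, the copy with the second highest level in 786-O, was close to the bottom of the family in A498. Its values in A498 were 2.67, 5.93, 3.45 and 5.63 FPKM, which rest on 43, 66, 37 and 43 reads. In 786-O they were 1903, 1914, 1843 and 1721 FPKM, on 20470 to 37619 reads. By mean FPKM it ranked 32nd of all gene symbols in 786-O and 7354th in A498. The mean was 418-fold higher in 786-O, and the log2 difference of −8.75 ± 0.22 (SE, adjusted p = 1.06e-09 in limma) was the 4th lowest of the 10503 tested.

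MT1M was all but undetected in A498, where it was listed at 0 in NTC 1 and with siRNA1, at 0.115 FPKM in NTC 2 and at 0.167 with siRNA2, with 1 read behind each of the latter values. In 786-O it was at 32.7, 32.9, 29.8 and 26.6 FPKM. Over the 4 libraries of a line, 2 reads in A498 stood against 1344 in 786-O, a depth-corrected ratio of 547 with an exact 95% counting interval from 151 to 4520. The fitted log2 difference, −7.62 ± 0.28 (SE, adjusted p = 1.30e-08 in limma), depends on the 0.1 FPKM that was added, and the interval covers counting error only. Since MT1M passed the filter on low values only through 786-O, its adjusted p is not support for a difference.

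MT1F stood between these groups. It was at 3.23, 3.77, 4.15 and 3.50 FPKM in A498, on 21 to 41 reads, and at 54.7, 51.4, 51.5 and 42.7 FPKM in 786-O. The mean was 13.7-fold higher in 786-O, with a log2 difference of −3.74 ± 0.07 (SE, adjusted p = 2.63e-10 in limma), and 1.01% of the genes tested had a difference as low or lower. For each of the 8 members a 2-sided exact permutation test of the line gave p = 0.0286, the smallest that 4 against 4 libraries allow. This p follows from the lack of overlap described above and is no separate support. The share of all genes tested that reach it is not given here. MT1M also passed the filter on low values only through 786-O, so for MT1M this outcome is not support for a difference.

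**Figure D2:**
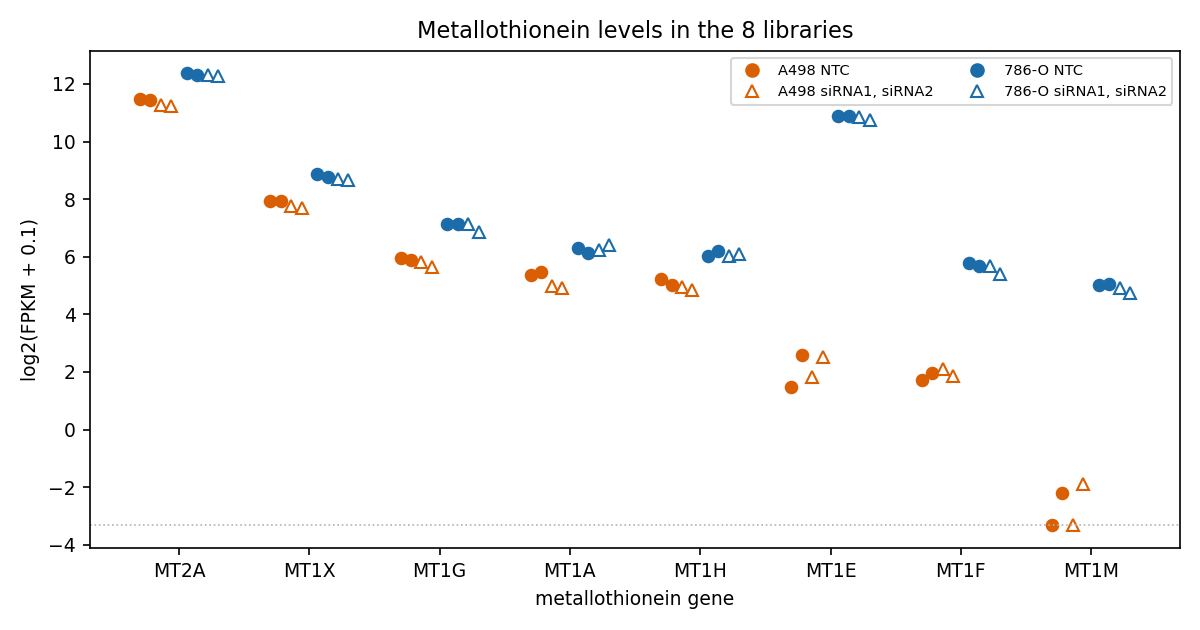
Level of the 8 members in every library as log2(FPKM + 0.1), with A498 in orange and 786-O in blue, NTC libraries as filled circles and siRNA libraries as open triangles (the dotted line marks 0 FPKM). MT2A, MT1X, MT1G, MT1A and MT1H lie about 1 unit lower in A498, and MT1E, MT1F and MT1M differ by −3.74 to −8.75 units.

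The order of the copies therefore differed between the lines. FPKM corrects for transcript length but not for the assignment of reads shared between copies, which was not tested. The orders below, and the shares of single copies in the sum, are therefore descriptions of the listed values. In A498 the order of the means was MT2A, MT1X, MT1G, MT1A, MT1H, MT1E, MT1F and MT1M, in which MT1A and MT1H overlapped, as did MT1E and MT1F. In 786-O it was MT2A, MT1E, MT1X, MT1G, MT1A, MT1H, MT1F and MT1M, and here only MT1A and MT1H overlapped.

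Summed over the 8 genes, metallothionein mRNA was at 3253, 3210, 2812 and 2710 FPKM in A498 and at 8034, 7770, 7734 and 7438 in 786-O. The sum made up 0.599% of the FPKM of all genes in A498 and 1.51% in 786-O, and was 2.58-fold higher in 786-O. MT2A held 87.8% to 88.0% of the sum in A498 and 65.0% to 66.9% in 786-O. MT1E held 23.1% to 24.6% in 786-O and at most 0.208% in A498. MT1X held 7.50% to 7.77% and 5.44% to 5.78%, and no other member passed 1.98% in any library.

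**Figure D3:**
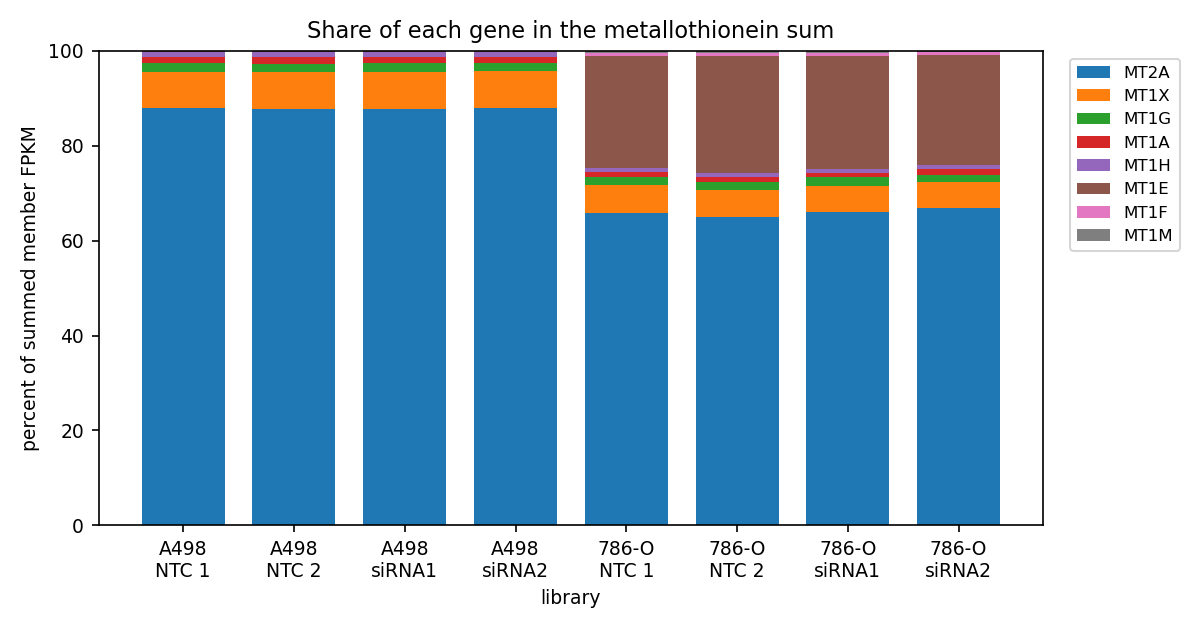
Share of each member in the summed FPKM of the 8 members, in percent, for each library. MT2A fills 87.8% to 88.0% of the A498 bars, and in the 786-O bars MT1E takes 23.1% to 24.6%.

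The tables also hold other entries of the cluster. Between MT2A and MT1A lie MT1L and MT1JP, transcripts annotated as non-coding, on either side of MT1E and MT1M. MT1L was at 0.379 to 1.10 FPKM in A498 and at 239 to 254 in 786-O. MT1JP was at 0.133 to 0.275 FPKM in A498 and at 122 to 157 in 786-O. The 4 adjacent entries MT1L, MT1E, MT1M and MT1JP span 19.6 kb. Their mean FPKM was between 378-fold (MT1L) and 779-fold (MT1JP) higher in 786-O. Their neighbours on either side, MT2A and MT1A, differed about 2-fold. Further along the cluster, MT1IP (354-fold) and MT1B (200-fold) had high ratios as well. Apart from MT1E, the A498 side of each of these high ratios rests on 1 to 22 reads, so their order is not resolved. MT1JP and MT1M shared 87 of their 36-base windows exactly, and MT1JP and MT1E shared 63. MT1L shared 8 of its 151 windows exactly with MT1E, and 110 matched MT1E within 2 mismatches. The values of these 4 adjacent entries therefore cannot be taken as independent.

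Further along, MT1B, a rarely expressed MT1 gene, was listed at 0 in 2 of the A498 libraries, below 0.001 FPKM with siRNA1 and at 0.103 FPKM in NTC 1, and was at 3.99 to 6.60 FPKM in 786-O. Its neighbour MT1F also differed widely, whereas MT1G and MT1H, which follow, differed about 2-fold. MT1IP, a pseudogene next to MT1X, was at 0 to 0.0151 FPKM in A498 and at 1.12 to 1.68 in 786-O. MT4, known from stratified epithelium, was listed at 0 in all libraries, and MT3, known from brain, did not pass 0.105 FPKM. MT1DP, an entry between MT1A and MT1B, was listed at 0 in A498 and did not pass 0.00471 FPKM in 786-O. MT1HL1, a copy on chromosome 1 without introns, was at 3.53 to 4.80 FPKM in A498 and at 85.0 to 127 in 786-O. It shared 79 of its 281 windows exactly with MT1H, which differed about 2-fold between the lines. Within 2 mismatches, its windows matched MT1H (160), MT1L (76), MT1G (74), MT1E (63) and MT1F (63), among others. These include copies that differed widely between the lines and copies that differed about 2-fold. The part of shared reads in the MT1HL1 values was not tested.

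**Figure D4:**
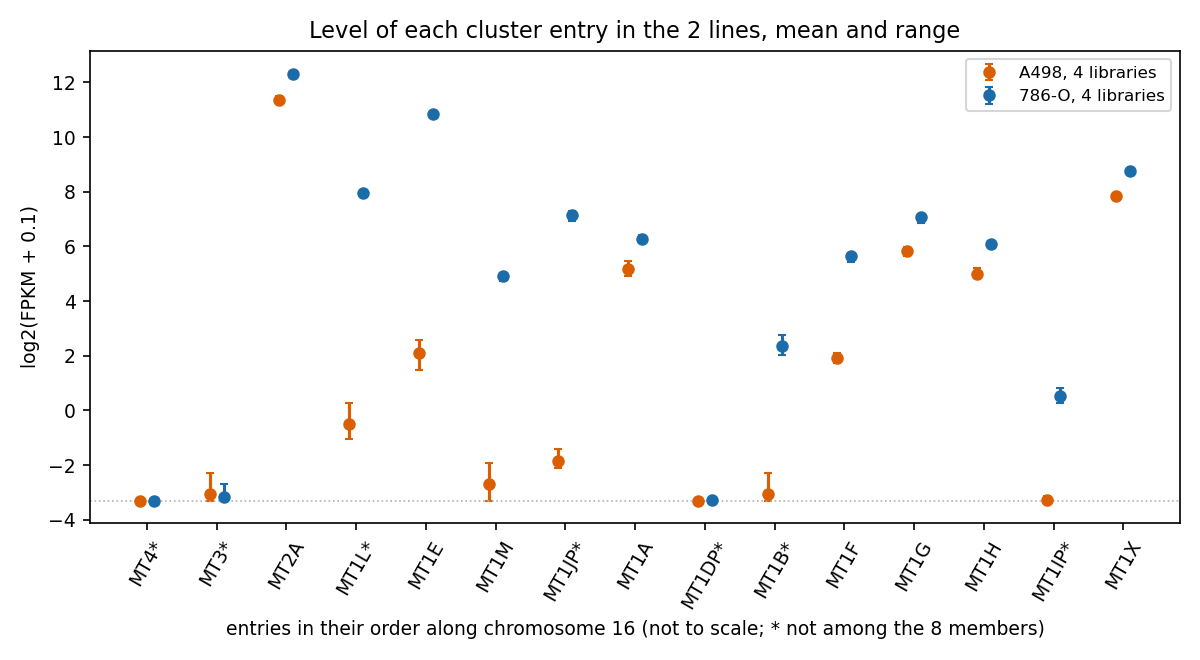
Mean level of each cluster entry as log2(FPKM + 0.1) in A498 (orange) and 786-O (blue), with bars for the range of the 4 libraries of a line, in the order of the entries along chromosome 16 and not to scale (an asterisk marks entries that are not among the 8 members, the dotted line 0 FPKM). The colours lie far apart from MT1L to MT1JP, at MT1B and MT1F and at MT1IP, and about 1 unit apart at MT2A, MT1A, MT1G, MT1H and MT1X.

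Other genes of metal handling were examined to place these differences. MTF1, the metal-sensing activator of metallothionein transcription, was at 1.93 ± 0.125 FPKM in A498 and 2.02 ± 0.125 in 786-O (SD, n = 4; log2 difference −0.06, adjusted p = 0.435 in limma). Of 5 transcription factors and regulators tested, 2 were higher in A498 and 1 was lower. NFE2L2, the activator of the oxidative stress response, was higher in A498 by 0.61 on the log2 scale, and its inhibitor KEAP1 by 0.34 (0.12 with the highest RefSeq entry of a symbol, adjusted p = 0.0616 in limma), and MTF2 was lower in A498 (−0.22). MTF2 fell short of the threshold without the siRNA1 library of either line (adjusted p = 0.0510 in limma), with only the NTC libraries (0.0515 by the same test) and with the highest RefSeq entry (0.322).

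Among the zinc exporters of the SLC30 family, 3 of 5 tested were higher in A498 and 2 were lower. SLC30A1, the exporter of the plasma membrane and a known MTF1 target, was at 15.8 ± 0.862 FPKM in A498 and 5.79 ± 0.766 in 786-O (SD, n = 4). Its log2 difference was 1.44 ± 0.06 (SE, adjusted p = 2.84e-08 in limma), opposite in sign to those of the metallothioneins. Whether MTF1 has a part in either difference was not tested. SLC30A5 was also higher (0.74), and SLC30A9 (−0.49) and SLC30A7 (−0.23) were lower. The call of SLC30A7 was lost without the siRNA1 library of A498 (adjusted p = 0.0526 in limma) or of 786-O (0.0543) and with only the NTC libraries (0.146), and its direction turned when the highest RefSeq entry of a symbol was taken. Of 11 zinc importers of the SLC39 family tested, 7 were higher in A498 and 4 lower. SLC39A8, which imports zinc, manganese and cadmium, was at 12.9 ± 0.701 FPKM in A498 and 25.9 ± 0.678 in 786-O (SD, n = 4; adjusted p = 9.58e-08 in limma). SLC39A6 was lower in A498 too (log2 difference −0.58), and SLC39A4 (0.62) and SLC39A10 (0.54) were higher. The median differences of the lists were 0.21 (SLC30) and 0.39 (SLC39).

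Of 10 copper-handling genes tested, 5 were higher in A498 and 2 lower. The copper chaperone ATOX1 was at 470 ± 10.3 FPKM in A498 and 239 ± 9.49 in 786-O (SD, n = 4; log2 difference 0.98). SCO2 (1.07) and SLC31A2 (0.52) were higher in A498 and the metalloreductase STEAP3 was lower (−0.66). Genes of the iron and heavy metal response were mostly higher in A498, namely 9 of 10 tested, with a median difference of 0.81. HMOX1, which degrades heme, was at 633 ± 52.6 FPKM in A498 against 341 ± 39.1 (SD, n = 4; log2 difference 0.90). The ferritin heavy chain FTH1 (0.87), the thioredoxin reductase TXNRD1 (1.04) and the heat shock gene HSPA1A (0.96) were higher in A498 as well.

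Glucocorticoid-responsive genes went both ways, with 4 of 8 tested higher in A498 and 3 lower. The kinase SGK1 was at 2.25 ± 0.223 FPKM in A498 and 12.1 ± 2.56 in 786-O (SD, n = 4; log2 difference −2.35), and ERRFI1 was lower too (−1.04), whereas TSC22D3 (1.19) and the clock gene PER1 (0.79) were higher. Of 8 ccRCC and tubule markers tested, 4 were higher in A498, among them KRT18 (0.56), and 4 were lower, among them NNMT (−0.79) and VIM (−0.46). CA9, a marker of most ccRCC, was at 0.460 ± 0.122 FPKM in A498 and at 0.00572 ± 0.0114 in 786-O (SD, n = 4). Of 10 markers of other cell types only the collagen gene COL1A1 reached a mean of 1 FPKM and was tested (3.19 ± 0.253 FPKM in A498 and 0.236 ± 0.0374 in 786-O, SD, n = 4), and PTPRC, CD3E and COL3A1 were listed at 0 in every library. Of all genes tested, 41% passed and were higher in A498 and 42.8% passed and were lower, and the counts of the lists are given as descriptions beside these shares.

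The genes outside the family whose log2 level followed the metallothionein sum most closely over the 8 libraries were PSMB1, RBM10, C11orf24, SLC25A6 and CHAF1A (Pearson r from 0.998 to 0.999). All were higher in 786-O, and 2379 of 10493 genes had an r of at least 0.95, since the points share the difference between the lines. After the mean of each line was subtracted, the closest were MPG, DEXI, TRIM55, TROAP and TEAD4 (r from 0.948 to 0.968 over 8 libraries), and 4 genes had an r of at least 0.95.

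No metallothionein passed an adjusted p of 0.05 in limma for SLINKY knockdown in either line. In the limma fits, 0.343% of the genes tested passed an adjusted p of 0.05 for siRNA1 against NTC, 0.0286% for siRNA2 against NTC and 0.371% for siRNA2 against siRNA1, with cell line as a covariate. Within A498 0.00952% passed for both siRNAs against NTC, within 786-O 0% passed, and 0.00952% passed for the difference of the knockdown effect between the lines. The number of members was 0 of 8 each time. At an unadjusted p under 0.05, limma gave 1 member for siRNA1 and 3 for siRNA2, against 10.6% and 13.5% of all genes, 4 within A498 against 6.10%, 0 within 786-O against 4.60%, and 2 for the difference between the lines against 1.82%. For siRNA2 against siRNA1 it gave 2 members, against 9.33%.

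In A498, the 5 copies at 28.4 FPKM or more in every library were nevertheless lower in both siRNA libraries than in both NTC libraries. These were MT2A, MT1X, MT1G, MT1A and MT1H, 5 of the 8 members, whereas both siRNA libraries lay below both NTC libraries for 16.7% of the genes tested. The fitted differences were −0.46 ± 0.08 for MT1A, −0.24 ± 0.08 for MT1H, −0.23 ± 0.05 for MT2A, −0.21 ± 0.10 for MT1G and −0.20 ± 0.05 for MT1X (log2, SE), with adjusted p between 0.722 and 0.774 in limma. The median over the 8 members was −0.21, against 0.01 over all genes tested. These copies share reads, as described above, and are not independent of each other. The reads computed from the intervals and summed over all entries, a guide to depth only, also differed between the A498 libraries. They were 37521431 and 25910730 in NTC, 24719137 with siRNA1 and 17486201 with siRNA2, and the part of depth in the result was not tested.

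The low copies of A498 showed no such order. MT1E ranged from 2.67 to 5.93 FPKM, with both extremes in NTC libraries, and MT1F and MT1M overlapped between NTC and siRNA libraries.

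In 786-O, both siRNA libraries lay below both NTC libraries for MT1E, MT1M and MT1X, 3 of the 8 members, and for 13.8% of the genes tested. The fitted knockdown differences in this line were −0.10 ± 0.32 for MT1E, −0.22 ± 0.45 for MT1M and −0.12 ± 0.05 for MT1X (log2, SE). For the other members they were −0.18 ± 0.12 (MT1F), −0.14 ± 0.10 (MT1G), −0.07 ± 0.08 (MT1H), −0.04 ± 0.05 (MT2A) and 0.09 ± 0.08 (MT1A). Each had an adjusted p of 0.983 or more in limma. The median over the members was −0.11, against 0.01 over all genes. The fit uses 1 variance per gene for both lines, and the MT1E libraries of A498 spread more widely on the log2 scale than those of 786-O.

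With both lines in 1 fit, siRNA1 gave log2 differences of −0.13 ± 0.04 for MT1X and −0.11 ± 0.05 for MT2A (SE, adjusted p 0.357 and 0.506 in limma). For siRNA2 the differences were −0.29 ± 0.05 for MT1G, −0.19 ± 0.04 for MT1X and −0.15 ± 0.05 for MT2A (SE, adjusted p 0.147, 0.263 and 0.319 in limma). The 95% interval of MT2A ran from −0.23 to 0.01 for siRNA1 and from −0.28 to −0.03 for siRNA2, so that a halving of the main copy lies outside both. The siRNA contrasts share the NTC libraries and are not independent.

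Against the mean of its NTC libraries and with the study's fold threshold, 0.32 on the log2 scale, each siRNA library can be described but not tested. In A498 the siRNA1 library was past it for 2 members, MT1A (−0.43) and MT1M (−0.55), when 3.78% of the genes tested were past it in either direction. The siRNA2 library was past it for 3, MT1A (−0.49), MT1E (0.49) and MT1M (0.87), against 5.49% of genes. The MT1M values rest on 0 or 1 read in each A498 library. Between the 2 NTC libraries of A498, 2 members (MT1E and MT1M) and 4.67% of genes were past it. In 786-O no member was past it with siRNA1 (5.97% of genes), with siRNA2 (3.91%) or between the NTC libraries (4.63%). MT1A in A498 was thus the only member past the threshold with both siRNAs in the same direction, and its NTC libraries differed by 0.09.

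**Figure D5:**
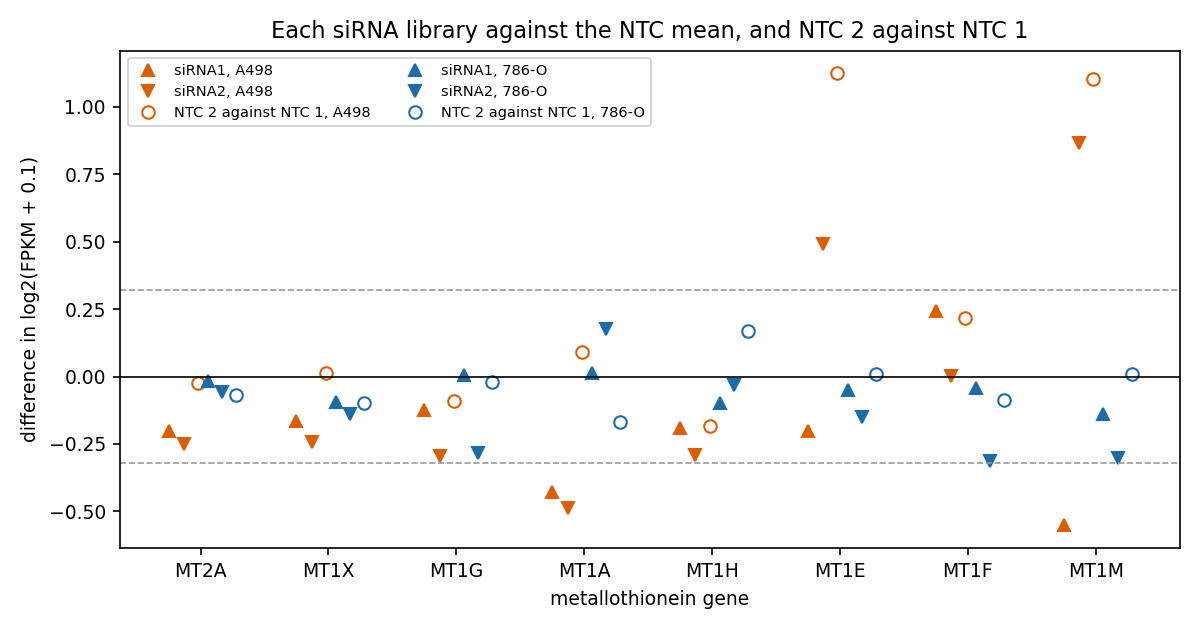
Difference in log2(FPKM + 0.1) of each siRNA library from the mean of the NTC libraries of its line (triangles), and of NTC 2 from NTC 1 (open circles), for the 8 members, A498 in orange and 786-O in blue, with dashed lines at the fold threshold (0.32). MT1A in A498 lies past the line with both siRNAs (−0.43 and −0.49), and for MT1E and MT1M in A498 the NTC libraries differ by 1.12 and 1.10.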

How the data were processed

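RNA-seq was done on 8 libraries. Single-end reads of 36 bp were aligned by the authors to hg19, and FPKM values with 95% intervals, estimated for each library separately, were deposited. The submitters' processing notes name TopHat2 2.0.0 and Cufflinks 2.0.2. Cufflinks can divide reads that match several entries between them, and whether it did so here was not tested. The sources used here name no scaling across libraries. The 8 tables hold 75378 entries each, in different orders, and were joined by entry and position. RefSeq mRNA entries were named from a RefSeq gene table (97.7% matched), and their FPKM was summed per symbol.

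The reads behind a value were computed from the upper bound of its interval. They came out within 0.05 of a whole number in 39 of the 40 member values under 1000 reads. Member coordinates are those of the tables, and transcripts and coding sequences came from GRCh37 with GENCODE annotation.

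Differences were tested on log2(FPKM + 0.1) with limma 3.58.1 (R 4.3.3), with a variance trend and Benjamini-Hochberg adjustment over the 10503 genes with a mean of at least 1 FPKM. One fit held cell line and treatment (NTC, siRNA1, siRNA2), and another the 4 groups, in which siRNA1 and siRNA2 were the replicates of the knockdown. The fits were tested on simulated data. Single members were compared by an exact permutation test (scipy 1.17.1). The members and gene lists were chosen with earlier results of these data known. The text names the 8 members, the other metallothioneins, up to 4 genes a list that passed between the lines by size of the difference and any that passed in a knockdown contrast (there were none), and the 5 genes most alike. 1 gene of the tubule list that this rule names is not reported here. MTF1, PAX8, CA9, PTPRC, CD3E and COL3A1 were named after their values were seen.

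Replicate numbers do not stand for a shared batch in the labels. The deviations of same-numbered libraries correlated with r = 0.25 in A498 and −0.03 in 786-O over 10503 genes. Plots used matplotlib 3.10.9.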

Additional observations from a re-analysis of the deposited data

Results flagged for a closer look

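For MT1A, the differences of the siRNA1 and siRNA2 libraries from the NTC mean on the log2 scale were −0.43 and −0.49 in A498 and 0.01 and 0.18 in 786-O, where the NTC libraries differed by −0.17. The signs differ between the lines, but no MT1A change passed in either line. The difference of the effects was −0.55, with an unadjusted p of 0.00106 and an adjusted p of 1.00 in limma, so it failed the correction.

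For MT1F the same values were 0.24 and 0.00 in A498, where the NTC libraries differed by 0.22, and −0.04 and −0.31 in 786-O. No MT1F change passed in either line, and the difference of the effects, 0.30, failed the correction (adjusted p = 1.00 in limma).

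MT1G in 786-O had 1 library apart from the rest, that with siRNA2 at 115 FPKM, where the gap to the next library was 0.925 of the whole range of 4. Chance flags about 1 in 20 sets, and 18 sets were looked at.

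MT1L, MT1JP and MT1IP, entries outside the fits, had mean FPKM of 246, 144 and 1.34 in 786-O and were near 0 in A498.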

How the results depend on the processing

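The difference between the lines kept its direction and an adjusted p under 0.05 for all 8 members under each of 18 alternatives, 144 of 144 values, in which MT2A ranged from −0.99 to −0.86 and MT1E from −8.95 to −8.46 on the log2 scale. MT1M moved from −9.62 to −4.88 with the pseudocount, since its A498 values rest on 2 reads. Its part in the 144 values is not support for a difference, as it passed the filter only through 786-O. The knockdown contrasts called 0 members in all of 102 counts under the alternatives, while the number of all genes called was unstable, and the cause was not tested. In the order siRNA1, siRNA2, siRNA2 against siRNA1, A498, 786-O and the difference between the lines, the main counts were 36, 3, 39, 1, 0 and 1. With a replicate block the counts that moved were 6, 0 and 0 for the first 3 and 2 in A498, and no call of a member changed. Without a filter on low values they were 1, 0, 1, 5, 2 and 4. With NM and NR rows siRNA1 gave 8, siRNA2 against siRNA1 6, A498 13, 786-O 9 and the difference 16. With the highest NM row the first 3 were 2, 1 and 0, and without a variance trend 8, 1 and 12. A pseudocount of 1 gave 57 for siRNA1 and 0 for A498 and for the difference, a pseudocount of 0.01 gave 3 for 786-O, and scaling to the same sum gave 5 for siRNA2. Leaving out 1 library gave 3 to 32, 1 to 11, 5 to 44, 1 to 8, 0 to 8 and 1 to 6. Against NTC 1 alone, 5 members were past the fold threshold with siRNA2 in A498 and 1 in 786-O, and against NTC 2 alone 1 in A498. The shares of all genes past it in these comparisons are not given here, and siRNA1 is left out. These counts therefore describe the choice of control and are no result about the members. The highest NM row turned SLC30A7 to 0.23, and KEAP1 and MTF2 did not pass under it. The ratio of the member sums stayed between 2.50 and 2.66 without 1 library. In A498, no value of MT1E, MT1F or MT1M rests on more than 66 reads.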
